A study of Mus musculus with 20 samples.

Results

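The Ms4a genes encode membrane proteins that span the cell membrane several times and keep both ends inside the cell. Their RNA was described here in hepatic monocyte-derived macrophages (MoMac) for the 7 members Ms4a4a, Ms4a4b, Ms4a4c, Ms4a6b, Ms4a6c, Ms4a6d and Ms4a7, chosen by gene symbol from the 17 Ms4a rows among 59311 rows. The cells came from 10 male C57BL/6J mice of 10 to 12 weeks, all with fibrosis from CCl4 (0.6 ml/kg, given for 4 weeks), a toxin that injures hepatocytes. Mice 16 to 20 received Ac-6-FP at 0.25 mg/kg, a ligand of the presenting molecule MR1 that leaves mucosal-associated invariant T (MAIT) cells unstimulated. Mice 11 to 15 received the solvent alone, DMSO in PBS, and are called vehicle mice. Dosing began before the last CCl4 injection and went on daily until the livers were taken 2 days after it. From each liver, CD11b+ F4/80+ cells negative for Ly6G, CD11c and CD3 were sorted into Ly6Chi and Ly6Clo MoMac, which gave 20 libraries in 4 groups of 5. All mice carried CCl4 fibrosis, so no value here speaks of a liver without injury, and the subsets are defined by sort gates, for which the study reports a high purity.

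The best known members of this family act beside immune receptors. Ms4a1 is CD20 of B cells, and Ms4a2 is the beta chain of the high-affinity IgE receptor of mast cells and basophils. In myeloid cells Ms4a4a is a surface protein of macrophages that cooperates with the beta-glucan receptor Dectin-1 (Clec7a), Ms4a6d has been tied to the inhibitory receptor Vsig4 and to the inflammasome sensor Nlrp3, and Ms4a7 is a marker of tissue macrophages. Ms4a4b is best known from T cells, where it associates with GITR (Tnfrsf18). Less is known of Ms4a4c, Ms4a6b and Ms4a6c, which monocytes express.

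The libraries held 5693049 to 18682437 reads on genes. The macrophage genes Cd68 and Adgre1 (F4/80) were above 0 in all 20 libraries, and Ly6c2, one of the genes for the sorting antigen Ly6C, ranged from 4930 to 10012 normalized counts in Ly6Chi and from 284 to 1014 in Ly6Clo. The Ly6Clo libraries also held RNA of other cells. Summed over 13 T and NK cell markers, they held 46164 to 102920 normalized counts against 0 to 1336 in Ly6Chi, led by the NK cell genes Gzma and Nkg7, while Cd3e, the gene of the excluded antigen CD3, was at 0 in 8 of 10 Ly6Clo and all 10 Ly6Chi libraries. Mast cell and basophil markers summed to 1099 to 13812 in Ly6Clo and 0 to 74.5 in Ly6Chi. Itgax, the gene of the excluded antigen CD11c, was at 0 in every Ly6Chi library and above 0 in 9 Ly6Clo libraries. The Ly6Clo library of mouse 13 stood apart, with the fewest reads, 5343 genes detected and an Itgam (CD11b) value of 2.09. Several results that moved when it was left out are given both ways.

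The 7 members lie within 283.8 kb of chromosome 19, at 11321039 to 11604804 in mm10, in a cluster of 17 Ms4a genes that spans 678.6 kb. Going by GENCODE vM21, 5 members are on the plus strand and 2, Ms4a6d and Ms4a7, on the minus strand, and all 7 are protein coding. In cluster order, Ms4a4a, Ms4a4c, Ms4a4b, Ms4a6c and Ms4a6b follow each other, while Ms4a4d, with 2.39 to 30.0 normalized counts, sits between Ms4a6b and Ms4a6d.

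**Figure D1:**
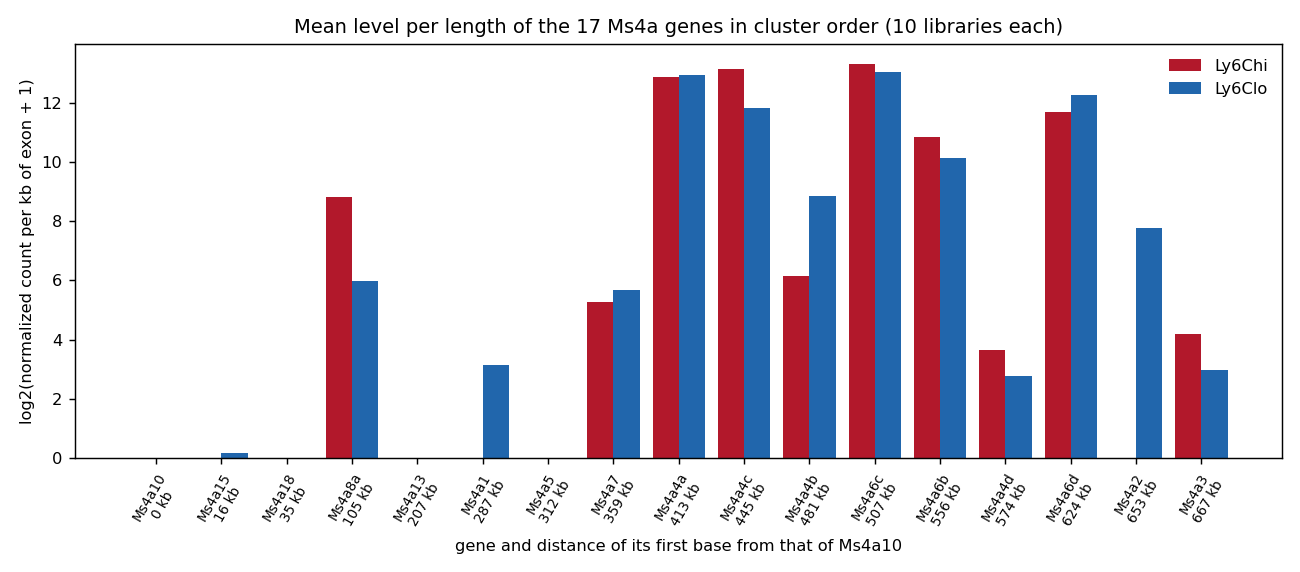
The bars give the mean level of the 17 Ms4a genes per kb of exon as log2(normalized count per kb + 1), over the 10 Ly6Chi (red) and 10 Ly6Clo (blue) libraries, in cluster order with the distance from the first gene. High levels run from Ms4a4a (413 kb) to Ms4a6d (624 kb), with low values for Ms4a4d and, in Ly6Chi, Ms4a4b among them, and Ms4a10, Ms4a18, Ms4a13 and Ms4a5 are at 0.

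The members arose by gene duplication, so reads of one can also match another. Of the 75-base words in GENCODE transcripts of each member, the share that also occurred in transcripts of another gene was 0.0% for Ms4a4a and Ms4a7, 0.4% for Ms4a6d, 0.6% for Ms4a6b, 1.2% for Ms4a4b and 3.8% for Ms4a4c. For Ms4a6c it was 47.7%, since the annotated gene BE692007 contains 943 of its 1976 words. A row without a symbol that overlaps Ms4a6c (11470166 to 11484578) had a mean of 14.7 normalized counts against 19290 for Ms4a6c, and one that overlaps Ms4a4c had a mean of 1.01 against 11090. Ms4a7 lies inside the Ms4a1 row, whose highest value was 206. The kit does not mark the strand, so reads from overlapping genes cannot be told apart, and values of the members carry that uncertainty.

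Promoter windows from RefSeq (GRCm38.p6), 250 bases before to 50 after a start site, were found for 6 members, with 2 windows for Ms4a7. They are shown for 2 pairs of neighbouring copies, of which Ms4a4c and Ms4a4b were called in opposite directions between the subsets. In capitals is the match to GAGGAA, a PU.1 core, in the first pair and to GAAANNGAA, an interferon response element, in the second. All 4 stretches are on the plus strand and end before the start site. They are, for Ms4a4c, chr19:11407556-11407658, for Ms4a4b, chr19:11443450-11443552, for Ms4a6c, chr19:11469191-11469293, and for Ms4a6b, chr19:11518309-11518411.
Ms4a4c: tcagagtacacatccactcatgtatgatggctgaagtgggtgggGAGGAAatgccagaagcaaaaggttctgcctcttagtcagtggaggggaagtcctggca
Ms4a4b: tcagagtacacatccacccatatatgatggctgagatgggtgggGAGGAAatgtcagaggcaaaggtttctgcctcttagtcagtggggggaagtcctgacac
Ms4a6c: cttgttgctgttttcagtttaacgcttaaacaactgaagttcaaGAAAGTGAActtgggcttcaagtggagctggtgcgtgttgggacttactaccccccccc
Ms4a6b: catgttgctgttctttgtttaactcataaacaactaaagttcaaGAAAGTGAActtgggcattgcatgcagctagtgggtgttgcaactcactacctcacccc

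The Ms4a4c and Ms4a4b stretches were identical at 89.4% of aligned positions, and the Ms4a6c and Ms4a6b stretches at 81.7%. These stretches were chosen around the shared match. Over the whole windows, Ms4a4c and Ms4a4b shared 73.5% of aligned positions. Ms4a6c and Ms4a6b shared 51.1%, within the 47.3% to 52.2% of the pairs other than these copies. That 51.1% cannot tell how alike Ms4a6c and Ms4a6b are, because the alignment did not take up the offset between their windows. The GAAANNGAA match starts 133 bases before the Ms4a6c start site and 206 bases before that of Ms4a6b. Outside the printed stretches, both windows also hold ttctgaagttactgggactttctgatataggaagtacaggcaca. The GAGGAA match starts 61 bases before the Ms4a4c start site and 64 bases before that of Ms4a4b. Both strands were searched in all windows. GAGGAA occurs in 28.3% of the 32851 RefSeq mouse windows and, among the members, in those of Ms4a4c, Ms4a4b and Ms4a7. GAAANNGAA occurs in 8.56% of all windows and in those of Ms4a6c, Ms4a6b and both of Ms4a7. TTGCNNAA (C/EBP, 10.8% of all windows) and TGACTCA (AP-1, 5.2%) matched no member window, which says only that these letters are not there, and no match overlapped another. The matches are a description of the letters and were not tested against the values below.

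Per kb of exon (GENCODE, which is not the constitutive length the reads were counted on), the mean levels in Ly6Chi ran from 10300 normalized counts for Ms4a6c, 9050 for Ms4a4c and 7610 for Ms4a4a through 3340 for Ms4a6d and 1840 for Ms4a6b to 69.7 for Ms4a4b and 37.8 for Ms4a7. In Ly6Clo they were 8530 for Ms4a6c, 7870 for Ms4a4a, 5000 for Ms4a6d, 3620 for Ms4a4c, 1120 for Ms4a6b, 459 for Ms4a4b and 49.8 for Ms4a7. This order depends on the length used. Over the bases that all GENCODE transcripts of a gene share, 430 for Ms4a6c, 202 for Ms4a4c and 135 for Ms4a6b, the latter genes would stand above Ms4a6c in Ly6Chi, and Ms4a4b has no such base. The 7 members together took 0.368% to 0.666% of all normalized counts in Ly6Chi and 0.213% to 0.616% in Ly6Clo.

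**Figure D2:**
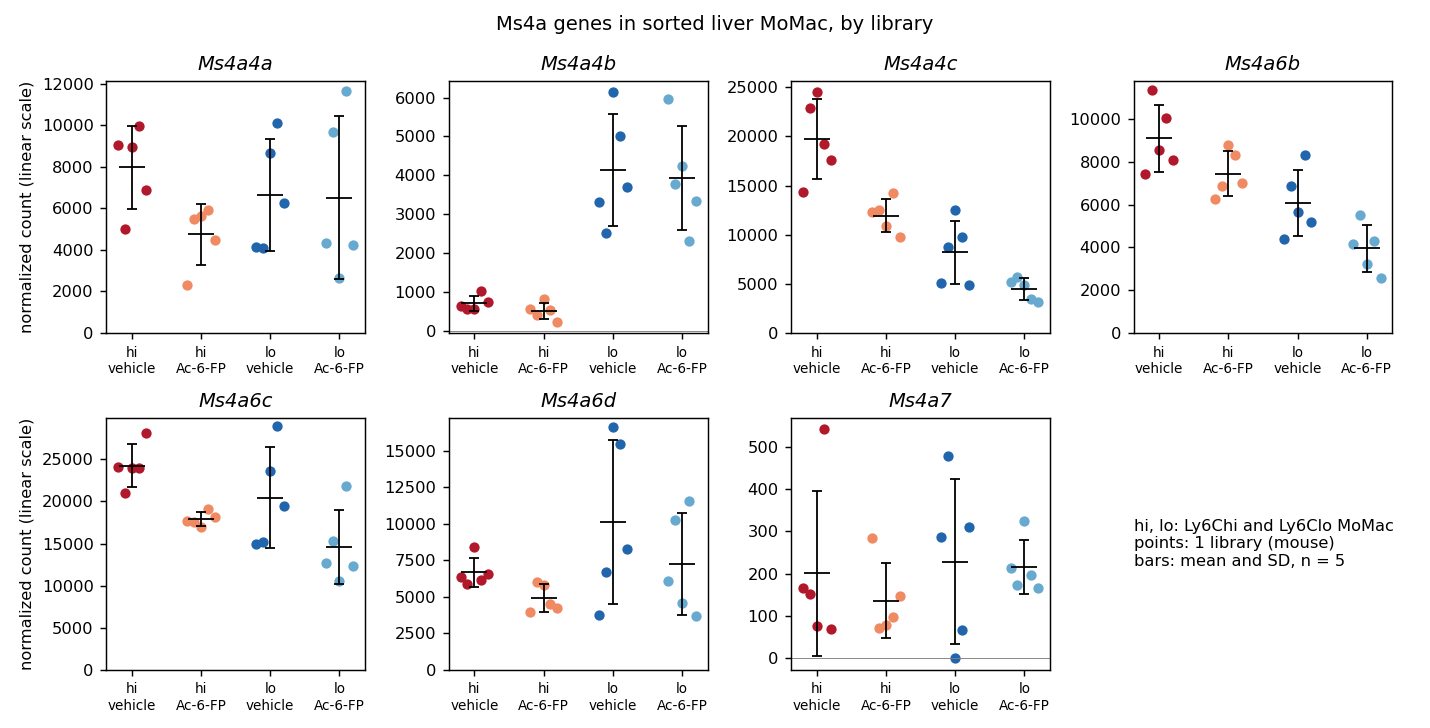
Each panel plots 1 member as normalized counts on a linear axis, with 1 point for each library in the 4 groups and black bars for the mean and SD (n = 5). Ms4a4b lies at 243 to 1024 in Ly6Chi and 2314 to 6130 in Ly6Clo, and Ms4a4c falls in steps from Ly6Chi vehicle to Ly6Clo Ac-6-FP, with Ms4a7 low throughout.

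The first question was how the members differ between the subsets of the same mouse. Of the 7 members, 2 were higher in Ly6Chi (Ms4a4c and Ms4a6b) and 1 was higher in Ly6Clo (Ms4a4b) by limma on log2(normalized count + 1), at a Benjamini-Hochberg adjusted p under 0.05 over the 17248 genes tested. Of all genes tested, 1.76% were called higher in Ly6Chi and 3.44% higher in Ly6Clo. The median log2 difference was 0.06 for the members and -0.03 for all genes tested. All 7 members passed the filter on low values, a mean of at least 10 in 1 or more groups. Since these are bulk libraries, fewer cells of a type and less RNA per cell cannot be told apart.

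Ms4a4c in Ly6Chi was 14327, 22936, 24571, 19226 and 17623 normalized counts in vehicle mice 11 to 15 and 12348, 12497, 10867, 14251 and 9763 in Ac-6-FP mice 16 to 20. In Ly6Clo of the same mice it was 5099, 8741, 12489, 9781 and 4899, then 5187, 5752, 4864, 3502 and 3139. Ms4a4c was therefore higher in Ly6Chi in all 10 mice, by 0.97 to 2.03 on the log2 scale within a mouse, although the highest Ly6Clo library (mouse 13) exceeded some Ly6Chi libraries of other mice. The mean within-mouse difference was 1.39 on the log2(normalized count + 1) scale (SE 0.11, 10 mice), a 2.62-fold higher level, with adjusted p = 5.18e-06 by limma. It was 1.34 (adjusted p = 0.000679, limma) in vehicle mice and 1.44 (adjusted p = 0.000445, limma) in Ac-6-FP mice. Order of the group means, with 19737 ± 4111 (SD, n = 5) in Ly6Chi vehicle first and 4489 ± 1120 in Ly6Clo Ac-6-FP last, separated only the first group from the next without overlap.

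Ms4a6b followed the same order at a lower level. In Ly6Chi it was 7442, 11338, 8567, 10028 and 8090 in vehicle mice and 6243, 6855, 8786, 8327 and 7032 in Ac-6-FP mice. In Ly6Clo it was 4411, 6850, 5652, 8316 and 5166 in vehicle mice and 4141, 5501, 3236, 4295 and 2579 in Ac-6-FP mice. The ranges of neighbouring groups overlapped, yet every mouse had more Ms4a6b in its Ly6Chi library. The within-mouse difference was 0.78 (SE 0.13, 10 mice, adjusted p = 0.00211, limma), or 1.71-fold. In Ac-6-FP mice it was 0.95 (adjusted p = 0.00956, limma) and without mouse 20 it no longer passed (adjusted p = 0.0549, limma). In vehicle mice it was 0.60 (adjusted p = 0.113, limma).

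Ms4a4b, the member known from T cells, ran the other way. In Ly6Chi it was 645, 571, 574, 1024 and 740 normalized counts in vehicle mice and 568, 416, 812, 532 and 243 in Ac-6-FP mice. In Ly6Clo it was 3306, 2511, 6130, 5003 and 3705 in vehicle mice and 5954, 3769, 4246, 2314 and 3339 in Ac-6-FP mice. No Ly6Clo library was as low as the highest Ly6Chi library. The within-mouse difference was -2.74 (SE 0.21, 10 mice, adjusted p = 4.84e-06, limma), a 6.66-fold higher level in Ly6Clo, with -2.50 (adjusted p = 0.000664, limma) in vehicle mice and -2.97 (adjusted p = 0.000188, limma) in Ac-6-FP mice.

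In all 10 mice, 2 of 7 members (Ms4a4c and Ms4a6b) were higher in Ly6Chi and 1 of 7 (Ms4a4b) in Ly6Clo, against 1.87% and 1.98% of all genes tested. Within a treatment the exact test of 5 mice cannot go below 0.0625. Over all mice, each of these 3 had p = 0.00195 by the two-sided exact permutation test, the smallest that sign changes of 10 differences can give. Within a treatment, 2 members were called in vehicle mice, where 2.35% of all genes tested were called, and 3 in Ac-6-FP mice, where 2.94% were. The same 3 members were called over the remaining mice when the Ly6Clo library of mouse 13, and with it the difference of that mouse, was left out.

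**Figure D3:**
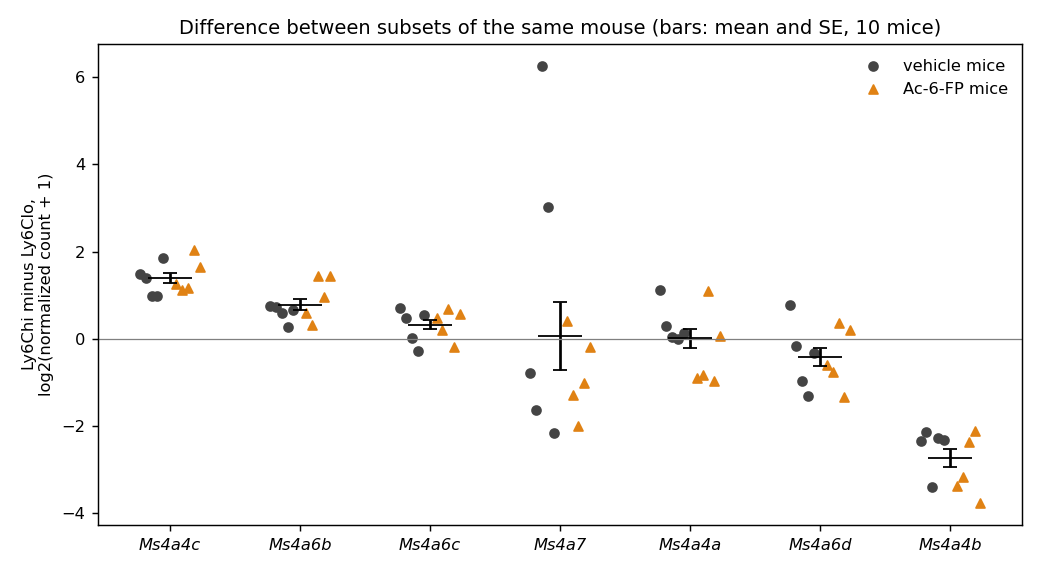
Points give Ly6Chi minus Ly6Clo of 1 mouse on the log2(normalized count + 1) scale for vehicle (circles) and Ac-6-FP (triangles) mice, and black bars the mean and SE over 10 mice. All points of Ms4a4c and Ms4a6b lie above 0 and all of Ms4a4b below, while Ms4a7 spreads from -2.17 to 6.27 because its Ly6Clo value in mouse 13 is 0.

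The other 4 members were not called between subsets. Ms4a6c was 21017 to 28197 in Ly6Chi vehicle, 14905 to 29012 in Ly6Clo vehicle, 16956 to 19109 in Ly6Chi Ac-6-FP and 10580 to 21827 in Ly6Clo Ac-6-FP libraries, in the order of their means. Its difference was 0.32 (SE 0.10, higher in Ly6Chi in 8 of 10 mice, adjusted p = 0.108 by limma, which became 0.0481 without mouse 14). For Ms4a6d, the partner of Vsig4, the Ly6Clo libraries held 3753, 6683, 16602, 15423 and 8258 in vehicle mice and 6070, 10260, 4552, 11529 and 3691 in Ac-6-FP mice, a wider spread than the 3959 to 8414 of Ly6Chi. Its difference was -0.42 (SE 0.20, lower in Ly6Chi in 7 of 10 mice, adjusted p = 0.315, limma). Ms4a4a, the partner of Dectin-1, ranged from 2329 to 9980 in Ly6Chi and from 2626 to 11660 in Ly6Clo, with a difference of 0.01 (SE 0.21, adjusted p = 0.992, limma) whose sign turned with the mouse left out. Ms4a7 ranged from 68.2 to 541 in Ly6Chi and from 0 to 478 in Ly6Clo, and its difference of 0.06 (SE 0.79, adjusted p = 0.978, limma) became -0.63 without the Ly6Clo library of mouse 13.

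Ms4a4b moved with a list of T and NK cell markers. Of the 11 tested, 8 were called higher in Ly6Clo and none higher in Ly6Chi. The 8 were the NK cell genes Gzma, Nkg7, Prf1, Ncr1, Klrb1c and Klrd1, several of which cytotoxic T cells share, and Lck and Cd2 of both lineages. The T cell genes Cd3d, Cd3g and Cd8a were not called (adjusted p = 0.577, 0.36 and 0.635, limma), and Cd4 was at 0 in all Ly6Clo libraries. Gzma was at 17527 to 38619 in Ly6Clo and 0 to 223 in Ly6Chi. Among the 10 Ly6Clo libraries, Ms4a4b and the summed marker list, both centred on the mean of their treatment, correlated with Pearson's r = 0.852 (permutation p = 0.0022) and Spearman's rho = 0.806 (permutation p = 0.00748), the only such relation computed. Without the 2 libraries farthest from the median of the marker sum, r was 0.731, and without the library of mouse 13 it was 0.834. In mice 13 and 16, which had the highest marker sums, Ms4a4b was also highest, at 6130 and 5954. The 5 mast cell and basophil markers, which include Fcer1a and the family gene Ms4a2, were all called higher in Ly6Clo too. The part of the cells these markers stand for in the level of Ms4a4b was not tested.

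In Ly6Clo, Ms4a4a, Ms4a6c and Ms4a6d rose and fell together from mouse to mouse. Ms4a4a was 8651 and 10089 in mice 13 and 14, 9694 in mouse 17 and 11660 in mouse 19, and 2626 to 6266 in the other 6 mice, and Ms4a6d was 16602, 15423, 10260 and 11529 in the same 4 mice and at most 8258 in the others. Of 42 pairs examined (21 in each subset, values centred on the treatment mean), 3 passed a Benjamini-Hochberg adjusted p of 0.05, all in Ly6Clo. Ms4a4a with Ms4a6c gave r = 0.936 and rho = 0.952 (permutation p = 8e-05 and 0.00015, adjusted 0.00336 and 0.0063). Ms4a6c with Ms4a6d gave r = 0.881 and rho = 0.903 (permutation p = 0.00099 and 0.00081, adjusted 0.0208 and 0.017). Ms4a4a with Ms4a6d gave r = 0.867 and rho = 0.818 (permutation p = 0.00212 and 0.00559, adjusted 0.0297 and 0.0783), so its rank correlation did not pass. Without the 2 libraries farthest from the median of the first gene, r was 0.959, 0.883 and 0.827, and without the library of mouse 13 it was 0.932, 0.888 and 0.873. In Ly6Chi the same pairs had r = 0.236, -0.043 and 0.58, and the difference from Ly6Clo was not tested. Genes of 1 library share its depth and cell makeup, whose part was not tested.

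**Figure D4:**
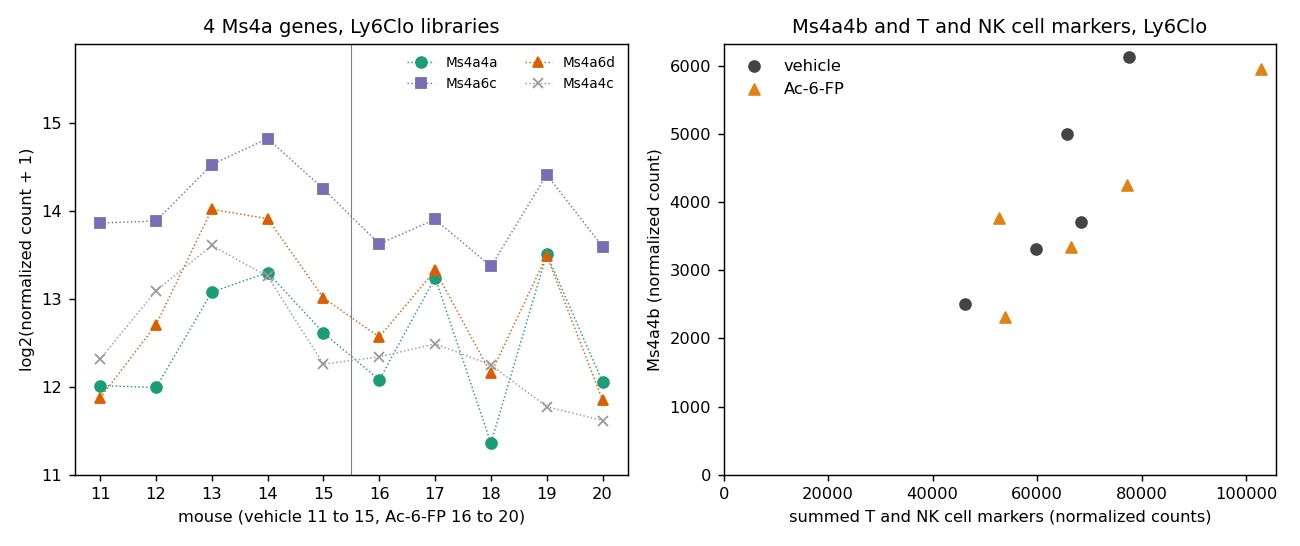
Left, Ms4a4a, Ms4a6c, Ms4a6d and Ms4a4c in the Ly6Clo library of each mouse as log2(normalized count + 1), where Ms4a4a and Ms4a6d are highest in mice 13, 14, 17 and 19, while Ms4a4c in mouse 19 is the second lowest. Right, Ms4a4b against the summed T and NK cell markers in normalized counts for the same libraries, with the highest Ms4a4b values at the highest sums of mice 13 and 16.

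Over all 20 libraries, the genes whose pattern was most like that of a member were sought by Pearson's r among 8784 genes with a mean of at least 100 in a group. Both subsets are pooled in these values, so a gene that differs between subsets alike scores high. Ms4a4b was followed most closely by Il2rg, the cytokine receptor gamma chain of lymphocytes (r = 0.966), a row without a symbol (r = 0.958) and the T and NK cell kinase gene Txk (r = 0.954). Ms4a6d was most like Trem3 (r = 0.921) and Clec4a3 (r = 0.863), and Ms4a4a most like Clec4a1 (r = 0.755), Ms4a6d (r = 0.747) and Trem3 (r = 0.72), so myeloid surface receptors led both lists. Ms4a6b was most like Ms4a4c (r = 0.889), Ifitm6 (r = 0.883) and Dusp22 (r = 0.882), and Ms4a4c most like Mpc1 (r = 0.928), a row without a symbol (r = 0.925) and Tmsb10 (r = 0.923). Ms4a6c was led by the row of LOC100038947 and Sirpb1c (r = 0.797), and Ms4a7 by Ctnna1, Tmem19 and Slc38a2 (r = 0.928, 0.928 and 0.917). Ms4a7 was at 0 in the Ly6Clo library of mouse 13 and at 65.8 or more in every other library. Its r values on the log2 scale therefore lean on that library, and r without it was not computed.

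The second question was whether Ac-6-FP changed the members within a subset. In Ly6Chi MoMac the estimate of every member was lower with Ac-6-FP, but none of the 7 was called by limma (adjusted p from 0.204 to 0.904), where 13 of all genes tested, 0.0754%, were. At an unadjusted p under 0.05, 4 members were lower with Ac-6-FP, as were 2.02% of all genes tested, and edgeR's quasi-likelihood test on recovered reads called 0. The median log2 difference was -0.45 for the members and 0.35 for all genes tested, of which 29.0% were below 0. That shift of all genes was 0.10 by edgeR and -0.01 after quantile normalization. The estimates of all 7 members stayed below 0 under both of these scalings, and that of Ms4a7 turned to 0.14 without mouse 14. Summed over the 7 members, vehicle libraries held 62106 to 75150 and Ac-6-FP libraries 43391 to 52752 normalized counts.

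Ms4a4c and Ms4a6c were the 2 members whose Ly6Chi libraries did not overlap between treatments, where 0.377% of all genes tested were lower with Ac-6-FP without overlap. Ms4a4c in Ly6Chi was 14327 or more in vehicle mice and 14251 or less in Ac-6-FP mice, so mice 11 and 19 nearly met. Its difference was -0.71 on the log2(normalized count + 1) scale (SE 0.16, adjusted p = 0.366, limma) and ranged from -0.82 to -0.48 over the alternatives, with adjusted p-values from 0.0536 to 0.696. Ms4a6c in Ly6Chi was 24127, 21017, 24001, 24003 and 28197 in vehicle mice and 17660, 17544, 16956, 19109 and 18163 in Ac-6-FP mice, with a wider gap between the groups. Its difference was -0.44 (SE 0.08, adjusted p = 0.204, limma). Both had p = 0.00794 by the two-sided exact permutation test, the smallest that 5 mice against 5 allow.

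The other members overlapped between treatments in Ly6Chi. Ms4a4a was 9030, 4983, 8948, 9980 and 6893 in vehicle mice and 2329, 5466, 5633, 5911 and 4459 in Ac-6-FP mice, a difference of -0.77 (SE 0.29, adjusted p = 0.543, limma). Ms4a6d was 6369, 5900, 8414, 6147 and 6547 in vehicle mice and 3959, 6003, 5809, 4525 and 4237 in Ac-6-FP mice, a difference of -0.45 (SE 0.15, adjusted p = 0.49, limma). Their exact permutation p-values were 0.0317 and 0.0159. Ms4a4b, Ms4a6b and Ms4a7 differed by -0.54, -0.28 and -0.33, with adjusted p-values (limma) from 0.62 to 0.904. Sequencing moved with the treatment here. Ac-6-FP libraries of Ly6Chi held 12549608 to 18682437 reads and 11096 to 15587 genes detected, and vehicle libraries 10597576 to 13646656 reads and 9017 to 14606 genes. Adjusted for genes detected, the difference was -0.48 for Ms4a4c, -0.49 for Ms4a6c, -0.07 for Ms4a6b and -0.19 for Ms4a4b. T and NK cell markers summed to 0 to 689 in vehicle and 287 to 1336 in Ac-6-FP libraries of Ly6Chi. Ly6C low monocyte markers summed to 4501 to 22841 (median 8848) and 14357 to 23098 (median 18816). Of the 8 genes of that list, 5 estimates were higher and 3 lower with Ac-6-FP, and none was called. Nr4a1 moved most in counts, at 1666 to 15444 (mean 5656) in vehicle and 10020 to 16963 (mean 14100) in Ac-6-FP libraries. The macrophage receptor gene Csf1r was 1284 to 8062 and 6553 to 10896, and the hepatocyte gene Apoa1 12.4 to 155 and 171 to 295, the latter without overlap. Hepatocyte markers together summed to 186 to 1201 and 396 to 683, which overlapped, and Alb of that list was 0 to 939 and 54.1 to 367. Their part in the differences was not tested.

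In Ly6Clo MoMac of the same mice, 6 of 7 estimates were below 0 and again none was called by limma (adjusted p from 0.528 to 0.941), where 9 of all genes tested, 0.0522%, were. At an unadjusted p under 0.05, 2 members (Ms4a4c and Ms4a6b) were lower with Ac-6-FP, as were 1.44% of all genes tested, and edgeR called 0. Without the library of mouse 13, Ms4a4c no longer met that threshold and Ms4a6b did. The median was -0.43 for the members and 0.91 for all genes tested, a shift that was 0.29 by edgeR and 0.02 after quantile normalization. Without the library of mouse 13, the median of all genes tested was 0.35 and the middle member, Ms4a6d, was at -0.20. Summed over the 7 members, vehicle libraries held 35897 to 77690 and Ac-6-FP libraries 29534 to 55325 normalized counts, which overlapped. No member was without overlap between treatments, against 0.215% of all genes tested that were lower with Ac-6-FP without overlap. Ms4a4c differed by -0.81 (SE 0.30, adjusted p = 0.528, limma; exact permutation p = 0.0635) and by -0.64 without the library of mouse 13. Over the alternatives its difference ran from -0.97 to -0.37, the latter with genes detected as a covariate, with adjusted p-values from 0.181 to 0.949. Ms4a6b differed by -0.63 (SE 0.24, adjusted p = 0.528, limma; exact permutation p = 0.0317), Ms4a6c by -0.49 and Ms4a6d by -0.43, which became -0.20 without the library of mouse 13. Ms4a4a (-0.15) and Ms4a4b (-0.07) had SEs of 0.45 and 0.30, larger than their estimates, which became -0.0309 and 0.0883 without that library. Ms4a7 differed by 1.43 (SE 1.55), a value that became -0.14 without the library of mouse 13 and -0.14 by edgeR. The directions of Ms4a4b and Ms4a6d turned with genes detected as a covariate (0.21 and 0.01). Genes detected ranged from 5343 to 15723 in vehicle and from 11156 to 15766 in Ac-6-FP libraries of Ly6Clo. Ly6C low monocyte markers summed to 15786 to 37352 in vehicle and 29440 to 70984 in Ac-6-FP libraries, B cell markers to 0 to 778 and 766 to 1284, and T and NK cell markers to 46164 to 77642 and 52645 to 102920. The 5 mast cell and basophil markers summed to 1971 to 13812 in vehicle and 1099 to 4408 in Ac-6-FP libraries, which overlapped. The sum of 13812 was that of mouse 13, and the next vehicle sum was 5825. Fcer1a was at -1.13 on the log2 scale, without overlap. Ms4a2 was at 0.90, which became -1.05 without the library of mouse 13, where it was at 0. Their part in the differences of the members was not tested.

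**Figure D5:**
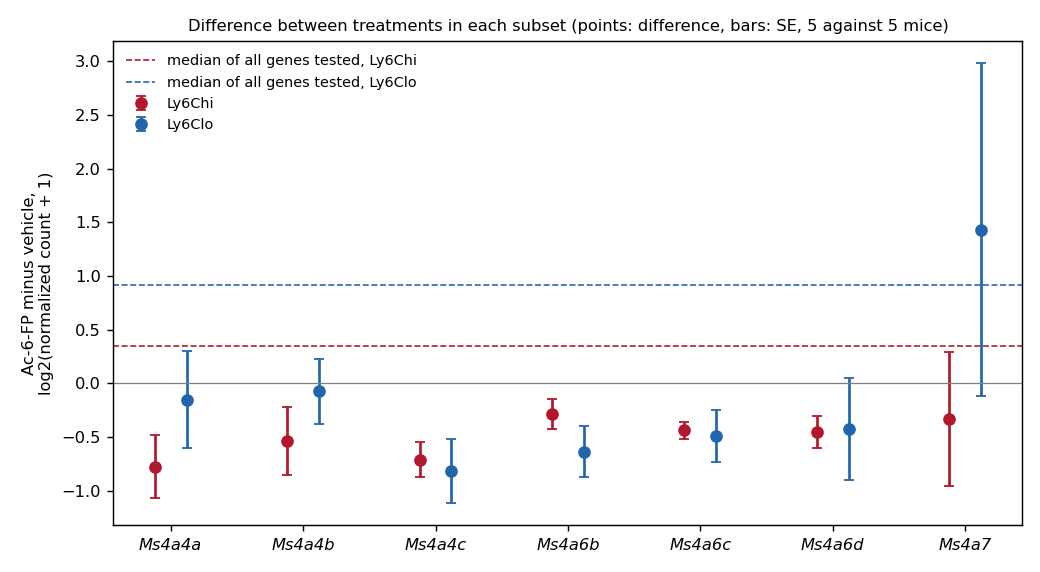
Points give Ac-6-FP minus vehicle on the log2(normalized count + 1) scale for each member in Ly6Chi (red) and Ly6Clo (blue), bars the SE of 5 mice against 5, and dashed lines the median of all genes tested, 0.35 in Ly6Chi and 0.91 in Ly6Clo. All points except Ms4a7 in Ly6Clo lie below 0, and none passed the adjusted threshold. Without the Ly6Clo library of mouse 13, the Ly6Clo median of all genes tested was 0.35.

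Whether the difference with Ac-6-FP itself differed between subsets was tested on the within-mouse differences, 5 mice against 5. No member was called by limma (adjusted p from 0.83 to 0.996), 0 had an unadjusted p under 0.05 and edgeR called 0. Of all genes tested, 0.0% were called and 4.87% had an unadjusted p under 0.05. The estimates were 0.10 (SE 0.22) for Ms4a4c, 0.35 (SE 0.24) for Ms4a6b, 0.05 (SE 0.21) for Ms4a6c, -0.62 (SE 0.40) for Ms4a4a, -0.47 (SE 0.42) for Ms4a4b and -0.03 (SE 0.42) for Ms4a6d. Without the Ly6Clo library of mouse 13, those of Ms4a4c and Ms4a6d were 0.0123 and -0.17. That of Ms4a7 was -1.76 (SE 1.56) and became -0.43 without the Ly6Clo library of mouse 13, where it was at 0. The study's own criterion is another test, which sets each Ac-6-FP library against the mean of the vehicle libraries, pairs the subsets and asks for an unadjusted p and a fold of 1.5. Here it was applied to the 17248 genes tested, without the study's own filter for expressed genes. It picks Ms4a7 alone among the members and 24.3% of all genes tested.

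Of the other genes of the family, Ms4a8a, which alternatively activated macrophages can induce, was higher in Ly6Chi, at 296 to 1321 normalized counts against 0 to 331 in Ly6Clo (3.61 on the log2(normalized count + 1) scale, SE 0.69, adjusted p = 0.00693, limma). Ms4a2, also on the mast cell and basophil list, was at 0 in all 10 Ly6Chi libraries and above 0 in 9 of 10 Ly6Clo libraries, with a mean of 610 that is at least 189-fold higher than 3 reads in the shallowest Ly6Chi library. Ms4a1 was at 0 in Ly6Chi and reached 206 in Ly6Clo, where 5 libraries were above 0. Ms4a3, a gene of granulocyte and monocyte progenitors, reached 117 in Ly6Chi and 69.3 in Ly6Clo. Tmem176a and Tmem176b, relatives of the family outside the cluster, were higher in Ly6Clo in 10 of 10 mice, by 1.33 (SE 0.24, adjusted p = 0.00419, limma) and 0.84 (SE 0.17, adjusted p = 0.0112, limma) on the log2 scale. With Ac-6-FP, none of the 7 tested genes of this list was called by limma in either subset.

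Among 11 genes of receptors and partners tied to Ms4a proteins, 4 were called higher in Ly6Clo and none higher in Ly6Chi, though Clec7a and Trem2 passed as higher in Ly6Chi without the Ly6Clo library of mouse 13. Tnfrsf18, the GITR partner of Ms4a4b, was 476 to 1505 in Ly6Clo and 0 to 207 in Ly6Chi (adjusted p = 0.000426, limma). Cd81, a tetraspanin, was 1431 to 3916 against 67.1 to 438 (adjusted p = 3.83e-06, limma). Fcer1a, the IgE receptor alpha chain, was 270 to 945 against 0 to 45.0 (adjusted p = 1.14e-05, limma), and Fcer1g, the signalling chain that myeloid cells also use, was 42598 to 89093 against 32480 to 56047 (adjusted p = 0.00662, limma). Fcer1a is also 1 of the 5 mast cell and basophil markers above. Clec7a, the Dectin-1 gene, was 1022 to 1770 in Ly6Chi and 0 to 1675 in Ly6Clo (1.59 on the log2 scale, adjusted p = 0.355, limma). Its 0 was the library of mouse 13, and without that library the difference was 0.65 (SE 0.16, adjusted p = 0.0346, limma). Trem2, a lipid receptor of macrophages, differed by 0.91 (adjusted p = 0.238, limma) and by 1.16 without that library (adjusted p = 0.0456, limma). Vsig4 was at 0 in 7 of 10 Ly6Chi and 4 of 10 Ly6Clo libraries, and Nlrp3 did not exceed 197, so both named partners of Ms4a6d were low beside Ms4a6d itself. None of the 11 was called with Ac-6-FP in either subset by limma.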

How the data were processed

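RNA of sorted Ly6Chi and Ly6Clo MoMac from 10 mice was sequenced as 20 libraries. The authors aligned reads with STAR 2.4.0 to mm10, counted them on constitutive regions of FAST DB genes and normalized them with DESeq2 size factors. The deposited values are this normalized signal, a read count divided by a size factor and not by gene length. Whole reads were recovered for 99.9996% of 245897 values above 0 (tolerance 0.006), so the depth of each library, 5693049 to 18682437 reads, is known.

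Genes with a mean of at least 10 in 1 or more groups (17248) were tested with limma 3.58.1 (R 4.3.3) on log2(normalized count + 1), with Benjamini-Hochberg adjustment at 0.05. As an alternative, edgeR 4.0.16 on the recovered reads called 584 genes between subsets in 10 mice where limma called 896. Ly6Chi and Ly6Clo libraries of 1 number came from the same mouse, so subsets were compared within mice. Residuals of the same mouse correlated with a median of 0.0338 (0.0033 to 0.2502), and those of different mice with a median of -0.0032. Treatments were compared between 5 mice and 5 in each subset. Exact permutation tests were two-sided, and correlations used 100000 permutations on log2 values centred on treatment means. Python 3.11.15 (numpy 2.4.6, pandas 2.3.3, scipy 1.17.1, matplotlib 3.10.9) was used for the rest.

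Named genes were the 7 members, the other Ms4a and Tmem176 genes, 11 partners, listed cell type markers, overlapping rows and, per member, the 3 genes of highest r over 20 libraries. The members and lists were chosen with earlier results of these data known. Of the listed markers, 2 were not found by symbol. Alternatives were other pseudocounts and filters, quantile normalization, genes detected as a covariate, edgeR, the exact test, the replicate block, the study's criterion, and leaving out each mouse or the Ly6Clo library of mouse 13. The correlations and the partner and marker tests without the library of mouse 13 were added after seeing the data. Labels give no batch. Methods were tested on simulated data.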

Additional observations from a re-analysis of the deposited data

Results flagged for a closer look

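In 2 of 28 groups examined (7 members in 4 groups of 5 libraries), 1 library lay far from the others by Dixon's ratio of its gap to the group's range, and chance gives about 1 in 20 groups. Ms4a6d in Ly6Chi of vehicle mouse 13 was 8413.77 normalized counts, with the next library at 6547.44 and a ratio of 0.743. Ms4a7 in Ly6Chi of vehicle mouse 14 was 541.36, with the next at 165.5 and a ratio of 0.794.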

How the results depend on the processing

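The calls of Ms4a4c, Ms4a4b and Ms4a6b between subsets in 10 mice held under every alternative run, with adjusted p-values up to 9.11e-05, 6.06e-05 and 0.00988, and 3 members were also called with no replicate block. With the mouse as a replicate block, 0 members were called with Ac-6-FP in either subset. Single calls moved when 1 mouse was left out, for Ms4a6c over 10 mice (adjusted p = 0.0481 by limma without mouse 14) and Ms4a6b in Ac-6-FP mice (0.0549 without mouse 20). By the study's criterion, a paired test of Ac-6-FP libraries against the vehicle mean with an unadjusted p (0.0144) and a fold of 1.5, 1 member (Ms4a7, -1.76) differed between subsets in its change with Ac-6-FP, against 0 by limma, where that criterion picks 24.3% of all genes tested. Without the Ly6Clo library of mouse 13 the Ms4a7 value by limma was -0.43.

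Directions turned in members that were not called. Ms4a7 between subsets in 10 mice was -0.22 with a pseudocount of 10, -0.10 after quantile normalization, -0.35 by edgeR and -0.63 without the Ly6Clo library of mouse 13, which gave -0.39 in vehicle mice. With Ac-6-FP in Ly6Clo, Ms4a4b was 0.21 and Ms4a6d 0.0108 with genes detected as a covariate, Ms4a4b was 0.0883 without the library of mouse 13, and Ms4a7 was -0.41, -0.14 and -0.14 with the covariate, without that library and by edgeR. The change between subsets was -0.0127 for Ms4a6c without that library, and for Ms4a6d 0.0808 after quantile normalization and 0.0359 by edgeR. Leaving out 1 mouse at a time gave -0.12 to 0.12 for Ms4a4a and -0.63 to 0.31 for Ms4a7 between subsets in 10 mice, and -0.39 to 1.71 for Ms4a7 in vehicle mice. It gave -0.65 to 0.14 for Ms4a7 with Ac-6-FP in Ly6Chi, and in Ly6Clo -0.42 to 0.12 for Ms4a4a, -0.24 to 0.10 for Ms4a4b and -0.14 to 2.08 for Ms4a7. For the change it gave -0.0443 to 0.23 (Ms4a4c), -0.0865 to 0.19 (Ms4a6c) and -0.25 to 0.27 (Ms4a6d). The cause of these turns was not tested.

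Over all genes, the calls between subsets were 896, against 584 by edgeR, 1702 with the covariate (979 higher in Ly6Chi) and 1108 after quantile normalization (491 higher in Ly6Chi). Vehicle mice gave 405 against 214 by edgeR and 1328 with the covariate, and Ac-6-FP mice 507 against 200 by edgeR. Ac-6-FP calls were 13 in Ly6Chi and 9 in Ly6Clo, against 0 in both by edgeR and after quantile normalization, and against 0 and 3 with the replicate block. The change gave 0, against 4185 by the study's criterion on the genes tested here. Values near 3 reads, as for Ms4a7 in mouse 13, carry the least precision.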

Other observations

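Lists of other cells that the text above does not describe differed between the subsets as well. All 8 genes of the Ly6C high monocyte list were called higher in Ly6Chi (median log2 difference 2.72 against -0.03 for all genes tested), while 4 of 8 genes of the Ly6C low monocyte list and 4 of 8 of the complement and lipid macrophage list were higher in Ly6Clo and none of either list in Ly6Chi. Without the Ly6Clo library of mouse 13, Itgal and C1qc of these lists were also called higher in Ly6Clo and Trem2 higher in Ly6Chi. Dendritic cell markers summed to 4702 to 19404 normalized counts in Ly6Clo and 83.8 to 535 in Ly6Chi, with 2 of 6 called. Most of the Ly6Clo sum was Cd209a (4369 to 19143), while the dendritic cell genes Zbtb46 and Clec9a did not exceed 149 and 94.4. Neutrophil markers summed to 9998 to 131041 and 4428 to 14760, with 3 of 8 called higher in Ly6Clo and 2 in Ly6Chi. Retnlg made up 9064 to 117062 of the Ly6Clo sums, and Ly6g, the gene of the antigen the sort excluded, did not exceed 192. Of the interferon response list, 1 of 9 was called higher in Ly6Chi. Of the sorting markers, 2 of 6 were called higher in Ly6Chi and 1 in Ly6Clo. B cell, Kupffer cell and hepatocyte lists each had 1 gene called higher in Ly6Clo, of 5, 5 and 4 tested, with hepatocyte sums of 1071 to 2265 in Ly6Clo and 186 to 1201 in Ly6Chi. No gene of these lists was called with Ac-6-FP in either subset by limma.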
